A study of Mus musculus with 8 samples.

Results

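The 33 genes described here encode the machinery that carries fatty acids into mitochondria and peroxisomes and oxidises them there. They were listed by name: carnitine transport, mitochondrial and peroxisomal beta-oxidation, the electron transfer flavoprotein and malonyl-CoA decarboxylase. These genes and the other lists used here were chosen with earlier results of these data known. All 33 were found among the 54385 gene identifiers of the deposited table, and all 33 were among the 14553 genes with enough counts to be tested. The samples were 8 RNA-seq libraries of interscapular brown fat from 20-week-old C57BL/6N mice fed chow. The series' design text names the inguinal depot instead, and the sample labels were followed. The 4 cKO libraries came from mice homozygous for a floxed allele of Adcy3, which encodes adenylyl cyclase 3, with Cre expressed from the adiponectin promoter (Adipoq-Cre) so that the floxed part is removed in adipocytes. The 4 WT libraries came from mice homozygous for the same floxed allele without Cre, so both groups carry the engineered Adcy3 allele. The title of WT replicate 4 names a control although its genotype entry includes the Cre, and it was kept with the controls. The labels do not say whether each library came from its own animal, and the spread that enters each p-value may therefore be technical.

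Beta-oxidation shortens an acyl-CoA chain by repeated dehydrogenation, hydration, a further dehydrogenation and thiolytic cleavage. Long chains enter the mitochondrion as carnitine esters, whereas peroxisomes take up very long and branched chains through ABC transporters and shorten them. In brown fat, adrenergic signalling through cyclic AMP releases fatty acids from lipid droplets, and their oxidation feeds the respiratory chain that UCP1 uncouples to produce heat. Adenylyl cyclases make cyclic AMP, so the comparison asks whether bulk brown fat of cKO mice holds different amounts of this pathway's transcripts. Apart from the genotype entry of WT replicate 4, Cre is named for the cKO mice alone. Loss of Adcy3 and presence of the Cre transgene therefore cannot be told apart.

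Adcy3 was at 17.95, 20.9, 25.3 and 21.5 CPM in the cKO libraries, against 112, 118, 61.7 and 118 CPM in the WT libraries, where CPM is the count scaled to library size with TMM factors. Every cKO library was below every WT library, and WT replicate 4 was among the highest (log2 fold change -2.26, edgeR adjusted p = 0.000925). Libraries held 10712795 to 32436907 estimated counts. All 8 brown adipocyte markers on the list were detected in every library, with summed levels of 3969 to 6916 CPM in cKO and 4461 to 5612 CPM in WT. An unadjusted edgeR p under 0.05 was found for 4 of the 8 markers, beside 5.6% of all genes tested. Their log2 fold changes were 0.79 for Prdm16, 0.72 for Zic1, -0.38 for Cox7a1 and -0.41 for Cox8b. None of the 8 was called by edgeR or limma-voom, and DESeq2 called Prdm16 (adjusted p = 0.00396). Transcripts of the mitochondrial genome took 26.8% to 31.7% of counts in cKO and 24.7% to 27.8% in WT. Fat of this depot lies against skeletal muscle, and 14 muscle markers took from 0.0198% to 1.11% of counts in cKO libraries and from 0.00801% to 0.907% in WT libraries. In bulk tissue, fewer cells of a type and less RNA per cell cannot be told apart.

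None of the 33 genes was called between cKO and WT (edgeR quasi-likelihood test, Benjamini-Hochberg adjusted p under 0.05 over all genes tested). Over the whole table that threshold called 10 genes, which is 0.0687% of those tested. DESeq2 called 46 genes (0.316%) and limma-voom 10 (0.0687%), and neither tool called any of the 33. Fold changes ran from -0.26 for Acaa1a to 0.27 for Etfdh on the log2 scale, with a median of 0.04, beside 0.01 over all genes tested. A positive value was found for 21 of the 33 (63.6%), against 51.8% of all genes tested. An unadjusted edgeR p under 0.05 was found for 1 of the 33 (3.03%), against 5.6% of all genes tested. The 95% interval of the fold change lay within 1.5-fold in either direction for 31 of the 33, and reached beyond it for Etfdh and Ehhadh. The lowest adjusted p among the 33 was 0.882 with edgeR and 0.608 with DESeq2.

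**Figure D1:**
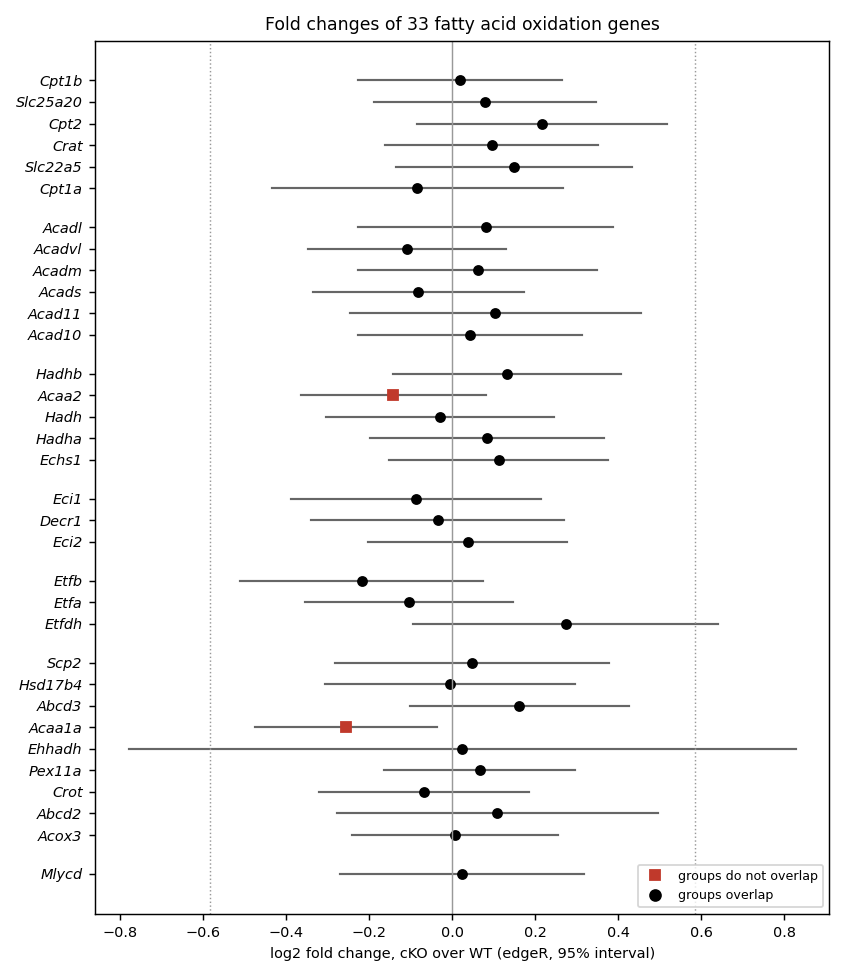
Log2 fold change of each gene, cKO over WT, with its 95% interval from edgeR (n = 4 libraries per group), grouped by role; dotted lines mark a 1.5-fold difference. Points lie between -0.26 and 0.27, and only the intervals of Etfdh and Ehhadh pass a dotted line; squares mark the 2 genes whose groups did not overlap.

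The pathway was abundant in these libraries. The 33 genes together took 2.03 ± 0.189% of counts in cKO and 2.15 ± 0.101% in WT (SD, n = 4 each). On the TMM scale their summed level was 21222 ± 2255 CPM in cKO and 20784 ± 1767 CPM in WT. The order of the group means thus depends on the scaling. TMM factors were 0.937 to 0.986 in cKO and 0.993 to 1.096 in WT, without overlap. To set genes beside each other, CPM was divided by the length in kilobases of the transcript with the longest coding sequence. On that per-length scale 24 of the 33 genes stood above the 95th percentile of 12876 tested coding genes. Hadhb, which encodes the thiolase-bearing beta subunit of the mitochondrial trifunctional protein, was highest on this scale, at 1521 ± 135 CPM per kilobase in cKO and 1388 ± 183 in WT (SD, n = 4 each). Acadl followed at 1034 ± 160 CPM per kilobase in cKO and 978 ± 121 in WT, then Acaa2 at 876 ± 39.3 in cKO and 967 ± 50.5 in WT. Acadvl had 845 ± 72.9 CPM per kilobase in cKO and 911 ± 47.2 in WT. The spreads of these neighbours below Hadhb touched, so their order is not firm. The rank of Hadhb depends on the length used: per kilobase of the union of all annotated exons it ranked at place 5, at 452 averaged over all libraries, against 961 for Acadl, 922 for Acaa2 and 709 for Acadvl. Cpt1a was lowest, at 3.87 ± 0.803 CPM per kilobase in cKO and 4.11 ± 0.516 in WT, and was alone among the 33 in lying below the median of tested coding genes.

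**Figure D2:**
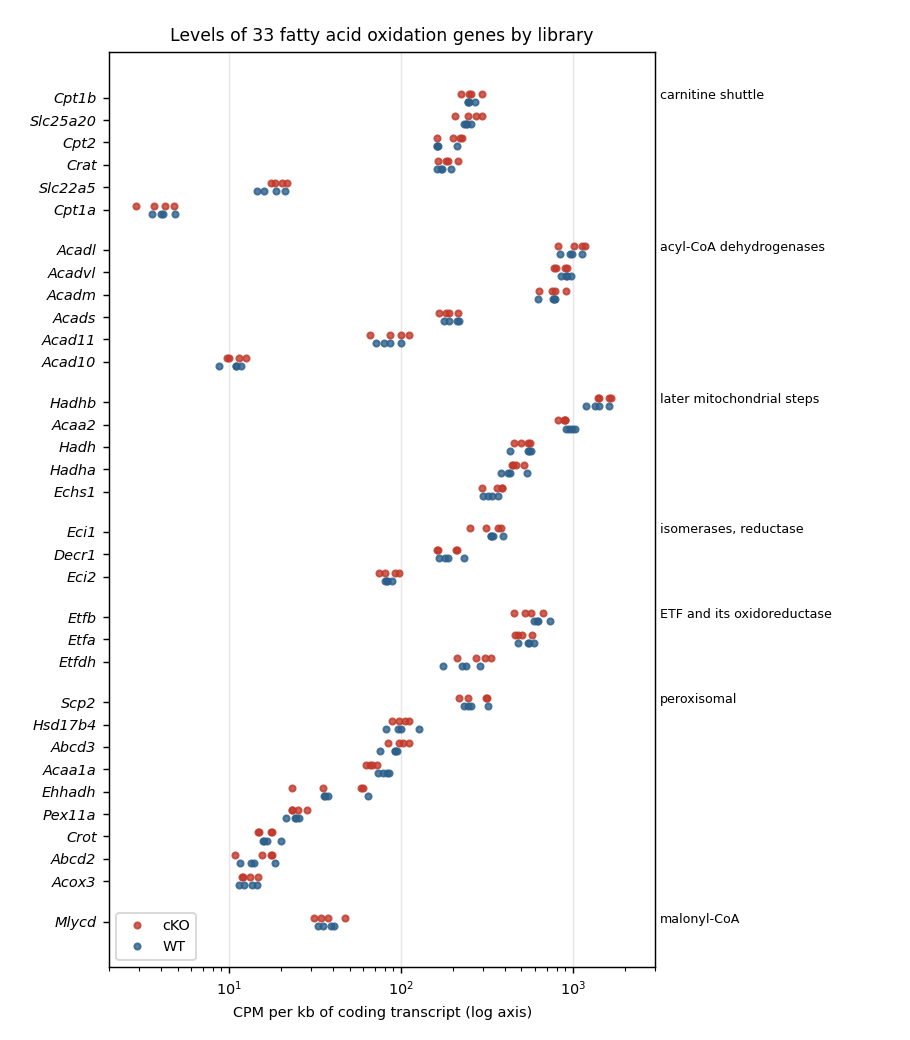
Level of each gene in every library, in CPM per kilobase of coding transcript on a log axis, with cKO above WT within each gene and genes grouped by role. Mean levels span from 3.99 CPM per kilobase for Cpt1a to 1455 for Hadhb, and the points of the groups overlap for all genes except Acaa1a and Acaa2.

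By role, the hydratase, dehydrogenase and thiolase genes of the mitochondrial spiral took 36.7 ± 1.30% of the summed per-length level in cKO and 36.0 ± 0.505% in WT. Acyl-CoA dehydrogenases took 28.7 ± 0.735% in cKO and 28.7 ± 0.647% in WT. The electron transfer flavoprotein and its oxidoreductase took 13.1 ± 0.382% in cKO and 13.98 ± 0.624% in WT. The carnitine shuttle took 9.004 ± 0.321% in cKO and 8.52 ± 0.289% in WT. The 9 peroxisomal genes took 6.37 ± 0.243% in cKO and 6.32 ± 0.357% in WT. These shares, on the same coding-transcript scale, are a description with no test (SD, n = 4 each).

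The 6 genes of the carnitine shuttle handle carnitine and its acyl esters. Cpt1b, the muscle and brown fat form of the outer-membrane enzyme that commits long chains to oxidation, had 643, 849, 719 and 739.6 CPM in cKO, against 708, 708, 718 and 779 CPM in WT. Cpt1a, the liver form of the same enzyme, had 18.3, 12.4, 20.4 and 15.7 CPM in cKO, against 17.7, 20.7, 17.3 and 15.3 CPM in WT. The lowest of the 8 libraries was a cKO library for both genes, the highest was a cKO library for Cpt1b and a WT library for Cpt1a, and the groups overlapped, with log2 fold changes of 0.02 ± 0.11 for Cpt1b and -0.08 ± 0.16 for Cpt1a (SE). Crat, which encodes carnitine acetyltransferase, was the most abundant gene of the group by CPM, at 688, 905, 787 and 772 CPM in cKO, against 824, 727, 685 and 717 CPM in WT. Its highest and second highest libraries were in different groups, so the ranges overlapped (log2 fold change 0.09 ± 0.12 SE).

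Cpt2, the inner-membrane enzyme that returns the acyl group to CoA, was singled out after its values were seen. It had 382, 538, 523 and 472 CPM in cKO, against 499, 387, 384 and 380.4 CPM in WT. Of the 4 cKO libraries 3 were above 3 of the WT libraries, while cKO replicate 1 sat among the low WT values and WT replicate 1 among the high cKO values. The log2 fold change was 0.21 ± 0.14 (SE; 95% interval -0.09 to 0.52; edgeR adjusted p = 0.896). Slc25a20, the carnitine-acylcarnitine exchanger of the inner membrane, averaged 453 ± 69.1 CPM in cKO and 429.6 ± 15.7 CPM in WT. Slc22a5, the plasma membrane carnitine transporter OCTN2, averaged 59.5 ± 5.95 CPM in cKO and 53.7 ± 8.94 CPM in WT (SD, n = 4 each). Within the group 5 of 6 fold changes were positive and none was called.

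The 6 acyl-CoA dehydrogenases carry out the opening dehydrogenation for chains of different length. Acadl, the long-chain enzyme, had 1563, 2246, 2166 and 1946 CPM in cKO, against 2167, 1829, 1602 and 1898 CPM in WT. The cKO libraries held both the lowest and the highest value (log2 fold change 0.08 ± 0.14 SE; edgeR adjusted p = 0.966). Acadvl, the very-long-chain enzyme, averaged 1831 ± 158 CPM in cKO and 1975 ± 102 CPM in WT. Acadm, the medium-chain enzyme, averaged 1572 ± 228 CPM in cKO and 1507 ± 154 CPM in WT. Acads, the short-chain enzyme, averaged 351 ± 37.4 CPM in cKO and 371 ± 34.6 CPM in WT. Of the less characterised relatives, Acad11 averaged 312 ± 66.8 CPM in cKO and 290.3 ± 41.5 CPM in WT, and Acad10 41.8 ± 5.05 CPM in cKO and 40.6 ± 5.002 CPM in WT. Log2 fold changes in this group lay between -0.11 for Acadvl and 0.10 for Acad11, 4 of 6 were positive and none was called.

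Hadha and Hadhb encode the alpha and beta subunits of the trifunctional protein, which carries out the last 3 steps on long chains at the inner membrane. The genes lie head to head on chromosome 5 of GRCm38, Hadha on the minus strand (chr5:30118304-30155162) and Hadhb on the plus strand (chr5:30155248-30184593). The whole gap between their GENCODE bounds is 85 bases and serves both genes as upstream sequence, so it is shown in full. It is printed 5′ to 3′ on the plus strand, from the RefSeq promoter window of Hadhb (GRCm38.p6, chr5:30155163-30155247), with its 9 CpG dinucleotides in capitals; 69.4% of its bases are G or C.
Hadha to Hadhb gap: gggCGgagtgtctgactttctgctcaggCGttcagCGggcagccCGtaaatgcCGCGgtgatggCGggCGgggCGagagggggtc
Hadha had 1764, 2092, 1878 and 1791 CPM in cKO, against 2178, 1722, 1529.7 and 1673 CPM in WT. Hadhb had 2863, 3378, 3329.8 and 2891 CPM in cKO, against 3327, 2742, 2422 and 2882 CPM in WT. For both genes WT replicate 1 was at the upper end of the cKO range or above it, and the other WT libraries were below the cKO range or just inside its lower end. The log2 fold change was 0.08 ± 0.13 for Hadha and 0.13 ± 0.13 for Hadhb (SE; edgeR adjusted p = 0.961 for Hadha and 0.922 for Hadhb).

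Of the remaining enzymes of the spiral, Hadh, the dehydrogenase for medium and short chains, averaged 918 ± 89.2 CPM in cKO and 937 ± 118 CPM in WT. Echs1, the short-chain enoyl-CoA hydratase, averaged 553 ± 67.2 CPM in cKO and 512 ± 44.4 CPM in WT (SD, n = 4 each). Acaa2, the mitochondrial thiolase, had 1241, 1341, 1366 and 1366 CPM in cKO, against 1378, 1434, 1554 and 1498 CPM in WT. Every cKO library was below every WT library, the highest cKO value and the lowest WT value being close together. The log2 fold change was -0.14 ± 0.10 (SE; 95% interval -0.37 to 0.08; edgeR adjusted p = 0.901), and Acaa2 was singled out for this separation after its values were seen. Groups without overlap were found for 2 of the 33 genes (6.06%), Acaa2 and Acaa1a, against 3.5% of all genes tested. Both were lower in cKO, a separation found for 2.27% of all genes tested, while 1.23% of all genes tested were higher in cKO without overlap.

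**Figure D3:**
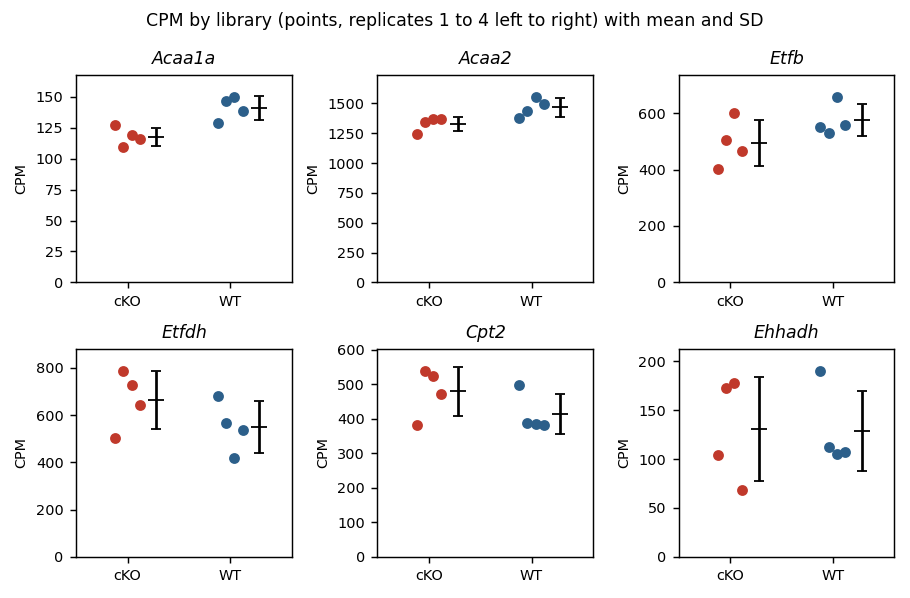
CPM in every library for 6 genes, cKO left of WT, points in the order of replicates 1 to 4 with the mean and SD beside them (n = 4 each); each axis starts at 0. For Acaa1a and Acaa2 every cKO point is below every WT point, while the groups overlap for Etfb, Etfdh, Cpt2 and Ehhadh.

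Eci1, Eci2 and Decr1 prepare unsaturated chains for the spiral by shifting or reducing their bonds. Decr1, the 2,4-dienoyl-CoA reductase, had 474, 623, 618 and 487 CPM in cKO, against 685, 550.2, 531 and 491 CPM in WT. The cKO libraries fell into a lower and a higher pair that enclosed 3 of the WT values (log2 fold change -0.04 ± 0.14 SE). Eci1, the main mitochondrial enoyl-CoA isomerase, averaged 373 ± 68.2 CPM in cKO and 396 ± 31.3 CPM in WT. Eci2, an isomerase found in mitochondria and peroxisomes, averaged 122 ± 14.9 CPM in cKO and 119 ± 4.47 CPM in WT.

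Etfa and Etfb encode the subunits of the electron transfer flavoprotein, which accepts electrons from the acyl-CoA dehydrogenases, and Etfdh encodes the oxidoreductase that passes them to ubiquinone. Etfa had 642, 799.8, 700.4 and 663 CPM in cKO, against 819, 760.5, 665 and 772 CPM in WT. Etfb had 402, 506, 599 and 467 CPM in cKO, against 551, 529, 657 and 559 CPM in WT. Etfdh had 500.7, 786, 726 and 643 CPM in cKO, against 681, 564, 417 and 535 CPM in WT. The 3 genes differed in sign, with log2 fold changes of -0.10 ± 0.12 for Etfa, -0.22 ± 0.14 for Etfb and 0.27 ± 0.17 for Etfdh (SE). Groups overlapped for each of them, and the edgeR adjusted p was 0.933 for Etfa and 0.894 for both Etfb and Etfdh. Values of Etfb and Etfdh in every library are given because they lay near the ends of the range of fold changes, a choice made after they were seen.

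Of the 9 peroxisomal genes, Acaa1a was the only member of the 33 with an unadjusted edgeR p under 0.05. It encodes peroxisomal 3-ketoacyl-CoA thiolase A and lies at chr9:119339676-119350299 on the plus strand of GRCm38. It had 127, 109.5, 119 and 115 CPM in cKO, against 129, 146, 149.8 and 138 CPM in WT. Every cKO library was below every WT library, although cKO replicate 1 and WT replicate 1 were close together. The log2 fold change was -0.26 ± 0.10 (SE; 95% interval -0.48 to -0.04), with an unadjusted edgeR p of 0.0258 and an adjusted p of 0.882. Acaa1a shares 23.4% of its 31-base sequences with other genes, most of all with its close paralog Acaa1b and next with Myd88. Myd88 and Slc22a14 overlap Acaa1a on the opposite strand, and the strand setting of the counting is not given. Acaa1b averaged 39.9 ± 7.71 CPM in cKO and 49.2 ± 12.8 CPM in WT, and the sum of both genes gave a log2 fold change of -0.27 (edgeR unadjusted p = 0.0358).

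Scp2, which encodes a thiolase for branched chains and a sterol carrier protein, had 571, 837, 816 and 643 CPM in cKO, against 849, 669, 647 and 609.8 CPM in WT. Its groups overlapped (log2 fold change 0.05 ± 0.15 SE). Abcd3, the peroxisomal transporter for branched and long chains also called PMP70, had 292, 385, 339 and 359 CPM in cKO, against 319.6, 329, 261 and 319.8 CPM in WT. Abcd2, a peroxisomal transporter for very long chains, had 97.2, 59.7, 98.4 and 85.2 CPM in cKO, against 101, 77.4, 63.5 and 73.9 CPM in WT. The log2 fold change was 0.16 ± 0.12 for Abcd3 and 0.11 ± 0.18 for Abcd2 (SE; edgeR adjusted p = 0.901 for Abcd3 and 0.965 for Abcd2). In cKO replicate 2 Abcd3 was at its highest and Abcd2 at its lowest of all 8 libraries.

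Ehhadh, the peroxisomal L-bifunctional enzyme, varied most between libraries, by 2.76-fold, whereas the 33 genes had a median of 1.44-fold between their highest and lowest library. Chosen for this spread after its values were seen, it had 104.5, 173, 178 and 68.8 CPM in cKO, against 190.0, 112, 105 and 107 CPM in WT. The cKO libraries held a high and a low pair and WT replicate 1 stood above the rest of its group, so the log2 fold change of 0.02 ± 0.34 (SE) has a 95% interval of -0.78 to 0.83. Hsd17b4, the peroxisomal D-bifunctional enzyme, averaged 269 ± 25.9 CPM in cKO and 270.3 ± 50.3 CPM in WT. Acox3, an acyl-CoA oxidase for branched chains, averaged 51.6 ± 5.30 CPM in cKO and 51.3 ± 5.49 CPM in WT. Crot, which converts peroxisomal products to carnitine esters, averaged 48.6 ± 4.92 CPM in cKO and 51.0 ± 6.04 CPM in WT. Pex11a, a peroxisome division factor, averaged 55.9 ± 5.32 CPM in cKO and 53.4 ± 3.78 CPM in WT (SD, n = 4 each).

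Mlycd encodes malonyl-CoA decarboxylase, which removes the inhibitor of the CPT1 enzymes. It had 66.1, 99.96, 79.3 and 73.0 CPM in cKO, against 83.0, 74.7, 85.9 and 69.5 CPM in WT. The cKO libraries again held both the lowest and the highest value (log2 fold change 0.02 ± 0.14 SE; edgeR adjusted p = 0.990).

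Counts of some of these genes depend on how reads were divided among similar transcripts. Sharing of 31-base sequences was highest for Cpt1b, at 79.7% with the overlapping same-strand gene model Gm44502. Etfb followed at 49.9%, most of all with Gm45233. Slc22a5 shared 37.8%, Scp2 33.4%, Acadvl 33.2%, Acad10 24.2% and Hadhb 23.7%. For Acadvl the sharing gene is Dvl2 on the opposite strand, and the strand setting of the counting is not given in the sources used here. Gm44502 was at 0 to 4.68 CPM in cKO and 3.29 to 8.38 CPM in WT, far below Cpt1b. Scp2-ps2, a pseudogene, was at 4.82 to 37.8 CPM in cKO and 8.46 to 91.4 CPM in WT. For Acad10 the related gene Acad12 was as abundant, and the log2 fold change of their sum was -0.09, against 0.04 for Acad10 alone.

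The table is per gene and holds no transcript isoforms, so 8 pairs of related genes, some of them paralogs and some subunits of 1 complex, were compared by the share of the pair's summed level per kilobase of exon union. Cpt1b made up 99.0 ± 0.288% of Cpt1b and Cpt1a in cKO and 98.9 ± 0.170% in WT (SD, n = 4 each; two-sided exact permutation test, p = 0.743). Hadha made up 31.3 ± 0.985% of Hadha and Hadhb in cKO and 32.0 ± 1.10% in WT (exact permutation p = 0.4). Abcd2 made up 21.7 ± 5.32% of Abcd2 and Abcd3 in cKO and 22.1 ± 2.64% in WT (exact permutation p = 0.943). Etfa made up 47.6 ± 3.61% of Etfa and Etfb in cKO and 45.5 ± 4.34% in WT (exact permutation p = 0.486).

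Eci1 made up 88.7 ± 0.911% of Eci1 and Eci2 in cKO and 89.6 ± 0.401% in WT, the lowest p of the 8 pairs (exact permutation p = 0.114, Benjamini-Hochberg adjusted p = 0.914). The remaining shares were those of Acad10 with Acad11 (18.1 ± 2.53% in cKO, 18.5 ± 1.57% in WT), Acadl with Acadm (71.0 ± 1.53% in cKO, 70.8 ± 1.53% in WT) and Acadvl with Acads (81.5 ± 0.991% in cKO, 81.8 ± 1.51% in WT). Groups overlapped in all 8 pairs. With 4 libraries against 4 there are 70 groupings, and the smallest p they can give is 0.0286; adjusted over 8 pairs, a separation of the groups in only 1 pair could not pass 0.05, so the absence of a call says little. The level of a share depends on the length used: per kilobase of coding transcript Hadha averaged 23.8% of its pair over all libraries.

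**Figure D4:**
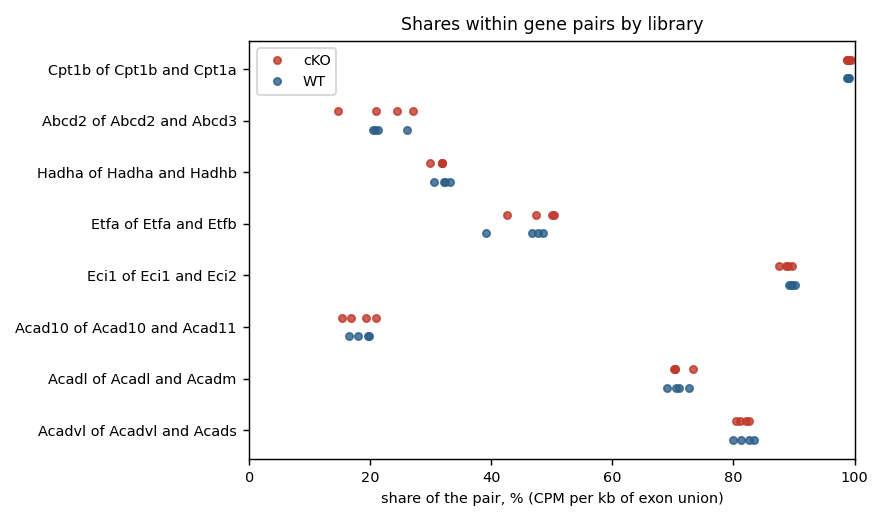
Share of each gene pair taken by the gene named before "of", in percent of the pair's summed CPM per kilobase of exon union, with 1 point per library and cKO above WT. Cpt1b is between 98.7% and 99.4% in all 8 libraries, and the points of cKO and WT overlap in every pair.

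The 33 genes varied together between libraries within each group. Within cKO, replicate 1 held the lowest value for 24 of the 33 genes and replicate 2 the highest for 21. Within WT, replicate 3 held the lowest value for 22 and replicate 1 the highest for 21. The median deviation from each gene's mean over 8 libraries was -0.19, 0.20, 0.13 and -0.04 on the log2 scale in cKO replicates 1 to 4, against 0.15, -0.01, -0.18 and -0.02 in WT replicates 1 to 4. Tested genes at least as abundant as the least abundant of the 33 numbered 6185 and had medians between -0.07 and 0.03 in the same libraries. Each of the 6 role groups with more than 1 gene had a negative median in cKO replicate 1 and in WT replicate 3, and a positive one in cKO replicates 2 and 3.

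Other quantities varied between the same libraries. The mean log2 CPM of 5 general adipocyte markers was lowest within cKO in replicate 1 (10.1) and lowest within WT in replicate 3 (10.2). It was highest within cKO in replicate 3 (10.8) and highest within WT in replicate 1 (10.6). The same mean over 8 brown adipocyte markers was 7.04, 7.85, 7.68 and 7.54 in cKO replicates 1 to 4, against 7.47, 7.31, 7.31 and 7.04 in WT replicates 1 to 4, so it was lowest in cKO replicate 1 but in WT replicate 4. That over 5 endothelial markers was 6.04, 5.95, 6.05 and 6.09 in cKO, against 6.01, 6.11, 6.51 and 5.91 in WT, highest in WT replicate 3. For 5 hepatocyte markers the mean was highest within each group in replicate 3, at 5.23 in cKO and 5.24 in WT. The next highest values were 4.404 in cKO replicate 4 and 4.347 in WT replicate 2. The levels of the 33 genes were not adjusted for the hepatocyte markers. Muscle markers took 1.11%, 0.314%, 0.0198% and 0.240% of counts in cKO replicates 1 to 4, against 0.00801%, 0.226%, 0.0515% and 0.907% in WT replicates 1 to 4. None of the 14 muscle markers was at 0 in any library, and their summed level ran from 204 to 11341 CPM in cKO and from 80.8 to 8890 CPM in WT. With the muscle score as a covariate the median fold change of the 33 genes was 0.06 and none was called. The part of cell content in the shared pattern was not tested.

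**Figure D5:**
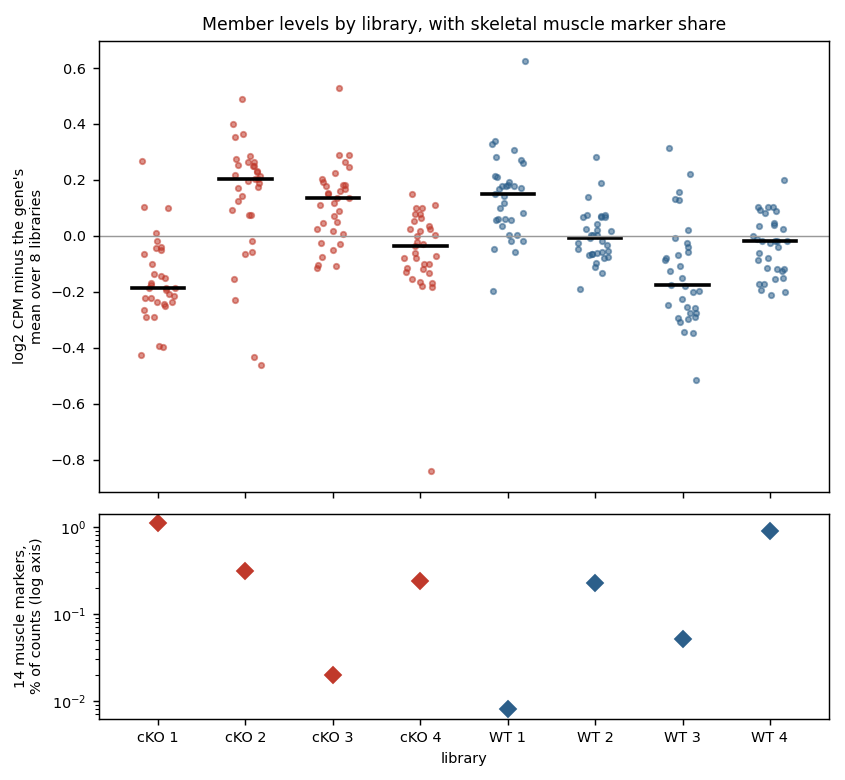
Upper panel, log2 CPM of each of the 33 genes minus that gene's mean over 8 libraries, with the median as a bar; lower panel, percent of counts in 14 skeletal muscle markers on a log axis. The bars of cKO 1 and WT 3 lie lowest, at -0.19 and -0.18, and the muscle share is highest in cKO 1 and WT 4.

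Neighbouring parts of fatty acid metabolism were read from lists chosen by function. The lists were chosen with earlier results of these data known, so the counts below are a description. Neither edgeR nor limma-voom called any of their members. An unadjusted edgeR p under 0.05 was found for 1 of 20 other oxidation genes, 1 of 7 activation genes, 1 of 5 ketone body genes, 0 of 7 malonyl-CoA genes, 2 of 12 regulators, 2 of 9 PPAR alpha-responsive genes and 2 of 16 peroxisome biogenesis genes, beside 5.6% of all genes tested. Of 20 other oxidation enzymes and transporters, 12 had positive and 8 negative values (median 0.06). Abcd4, an ABC transporter of this family that serves cobalamin export from lysosomes, had 29.3 ± 1.22 CPM in cKO and 35.8 ± 4.68 CPM in WT (log2 fold change -0.29, edgeR adjusted p = 0.882). Slc25a17, a peroxisomal carrier of CoA and other cofactors, had 77.2 ± 12.8 CPM in cKO and 64.6 ± 6.97 CPM in WT (0.26, adjusted p = 0.890). Of 7 tested genes for activation of fatty acids to acyl-CoA, 5 had positive values (median 0.21). Acsl3 had 55.2 ± 8.81 CPM in cKO and 41.0 ± 9.50 CPM in WT (0.43, adjusted p = 0.882), and Acsl4 31.6 ± 5.60 CPM in cKO and 25.7 ± 3.53 CPM in WT (0.30, adjusted p = 0.886). Both encode long-chain acyl-CoA synthetases.

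Of 5 ketone body enzymes, 4 had positive values (median 0.14). Oxct1, which activates acetoacetate for use as fuel, had 225.5 ± 37.8 CPM in cKO and 177 ± 33.7 CPM in WT (0.35, edgeR adjusted p = 0.884). Of 7 genes of malonyl-CoA synthesis and the AMP-activated kinase that restrains it, 6 had positive values (median 0.06). The kinase subunit genes Prkaa1 (47.4 ± 2.34 CPM in cKO and 42.2 ± 9.56 CPM in WT) and Prkaa2 (38.4 ± 9.31 CPM in cKO and 30.9 ± 10.9 CPM in WT) had the lowest p of that list, with edgeR adjusted p of 0.920 for Prkaa1 and 0.922 for Prkaa2.

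Among 12 transcription regulators of oxidation, 6 values were positive and 6 negative (median 0.03). Esrrb, an estrogen-related receptor, had 2.78, 2.50, 2.09 and 3.79 CPM in cKO, against 1.09, 0.643, 0.298 and 1.36 CPM in WT. Every cKO library was above every WT library at these low levels (log2 fold change 1.72 ± 0.42 SE; edgeR adjusted p = 0.493), and DESeq2 called the gene (adjusted p = 0.0342). Rxrb, a retinoid X receptor that pairs with PPARs, had 48.7 ± 0.588 CPM in cKO and 59.1 ± 3.10 CPM in WT (-0.28, edgeR adjusted p = 0.867). Of 9 other genes known to respond to PPAR alpha, 4 had positive values (median -0.05). Acot1, a cytosolic acyl-CoA thioesterase, had 7.40 ± 3.27 CPM in cKO and 4.44 ± 0.842 CPM in WT (0.73, edgeR adjusted p = 0.882). Ucp3, an uncoupling protein homologue, had 95.5 ± 14.5 CPM in cKO and 73.9 ± 17.97 CPM in WT (0.37, adjusted p = 0.884).

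Of 16 peroxisome biogenesis genes, 7 had positive and 9 negative values (median -0.02). Pex10, a ubiquitin ligase of the import machinery, had 10.3, 9.99, 8.76 and 8.46 CPM in cKO, against 12.8, 14.7, 12.02 and 11.8 CPM in WT. Pex6, a subunit of the complex that recycles the import receptor, had 98.2, 128, 122 and 109.9 CPM in cKO, against 146, 148, 168 and 134 CPM in WT. For both genes every cKO library was below every WT library, with log2 fold changes of -0.45 ± 0.14 for Pex10 and -0.38 ± 0.12 for Pex6 (SE; edgeR adjusted p = 0.805 for Pex10 and 0.814 for Pex6).

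PPAR and RXR dimers bind a direct repeat with a 1-base spacer (DR1), and promoters of the pathway were searched for it in the RefSeq windows from 250 bases before to 50 bases after the start. Windows were matched for 27 of the 33 genes. The DR1 consensus, AGGTCA repeated in the same direction after 1 base of any kind, was searched on both strands with up to 2 mismatches and found in 3 of the 27 (11.1%), against 4.40% of 27025 genes. The matches, each with 2 mismatches, are shown because PPAR and RXR genes are among the regulators listed above. They are printed 5′ to 3′ on the gene's strand, with the match in capitals and 8 flanking bases on each side. They lie at chr7:140116484-140116512 on the minus strand (Echs1), chr9:55512300-55512328 on the minus strand (Etfa) and chr9:108662134-108662162 on the plus strand (Slc25a20) of GRCm38.p6.
Echs1: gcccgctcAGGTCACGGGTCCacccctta
Etfa: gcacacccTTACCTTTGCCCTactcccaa
Slc25a20: ctgaatgtAGGTGAAAGGTCGgcggagcc
The Etfa match reads on the opposite strand. The estrogen-related receptor motif TCAAGGTCA was in 0 of the 27 windows, against 0.466% of genes. The full cyclic AMP response element TGACGTCA was in 0 of 27, against 2.03% of genes. The shorter TGACG, contained in that element, was in 10 of 27 (37.0%), against 23.0% of genes. TGACG holds a CpG, and member windows had a median of 17 CpG dinucleotides, against 7 over all windows. The background is therefore unlike the member windows, and the part of base composition in these shares was not tested. A match describes letters in the window and no match says nothing of the factor. The genes with a DR1 match had log2 fold changes of 0.11 for Echs1, -0.10 for Etfa and 0.08 for Slc25a20.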

How the data were processed

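Polyadenylated RNA, per the design text, from 4 cKO and 4 WT brown fat samples was sequenced as paired ends (NEBNext Ultra II RNA library kit, per the labels). The authors deposited 1 table of estimated counts per gene; per the submitters' processing notes the tools were StringTie, Salmon and edgeR and the build GRCm38. Neither versions nor an annotation or strand setting were given there or in the other sources used here. Such counts divide ambiguous reads among similar transcripts. Every column matched 1 library. Members and lists were chosen with earlier results of these data known. GENCODE M21 named 54131 of 54385 identifiers (99.5%).

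Estimated counts were rounded, filtered with filterByExpr (14553 genes), scaled by TMM and tested in R 4.3.3 with the robust quasi-likelihood test of edgeR 4.0.16, group being the single term, at a Benjamini-Hochberg adjusted p of 0.05 across the table. DESeq2 1.42.0 (Wald), limma-voom (limma 3.58.1), other filters and scalings, and leaving out each library were alternatives. The fit was tested on simulated data. The smallest count of any of the 33 genes in a library was 124; intervals are 95%. Pair shares used a two-sided exact permutation test over 8 libraries. No pair of libraries within a group agreed within sampling noise (chi-square per degree of freedom at least 14.5). Every member is named. Values in every library are given for members with an unadjusted p under 0.05, for the member with the highest mean CPM of each role and for Cpt1a, Cpt1b, Abcd2, Abcd3, Hadha and Hadhb. From other lists up to 2 genes with the lowest unadjusted p are named. A gene that this rule names is not reported here.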

Additional observations from a re-analysis of the deposited data

Results flagged for a closer look

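In 9 of 82 groups of 4 libraries, 1 library stood far from the other 3 by Dixon's test, where chance gives about 5% of independent groups. The 82 groups come from the same 8 libraries and from genes that varied together. Their number therefore cannot be set against that 5%. WT replicate 1 was the highest of its group for Cpt2 (499 CPM), Eci1 (443 CPM) and Ehhadh (190.0 CPM). WT replicate 3 was the lowest of its group for Acadm (1278 CPM) and Abcd3 (261 CPM). WT replicate 4, whose genotype entry names the Cre, was the highest of its group for Cpt1b (779 CPM). This library also had the highest muscle marker share of its group, at 0.907% of counts. The part of either in the Cpt1b value was not tested. Among the shares, WT replicate 1 was highest for Abcd2 of Abcd2 and Abcd3 (26.0%). cKO replicate 3 was lowest for Hadha of Hadha and Hadhb (29.9%) and highest for Acadl of Acadl and Acadm (73.3%).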

How the results depend on the processing

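None of the 33 genes was called under any of the 18 alternatives. Over the whole table, where the fit as reported called 10 genes, DESeq2's Wald test called 46, the fit with no count filter 93 and the fit with WT replicate 4 moved to cKO 1; the cause was not tested. Of the recomputed fold changes of single members, 544 kept their sign and 50 changed it. Deviations of same-numbered libraries from their group means had correlations of -0.46, 0.03, 0.41 and 0.0016. With 4 libraries per group that differ in cell content, these values cannot decide whether replicate numbers pair the samples. With the replicate number as a block, 7 genes and 0 members were called, the median of the 33 was 0.03, Ehhadh was at -0.031 and Hsd17b4 at 0.0073. Permuting the shares within replicate numbers can give no p below 0.125, so no share could be called that way.

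Signs also changed as follows, on the log2 scale. With limma-voom Ehhadh was at -0.028 and Hsd17b4 at 0.010. With no count filter Acox3 was at -0.012 and Ehhadh at -0.00018. With WT replicate 4 moved to cKO, Hadh was at 0.025, Acox3 at -0.033, Ehhadh at -0.10, Scp2 at -0.048 and Mlycd at -0.061, and the share difference was 0.385 percentage points for Acad10 with Acad11 and 0.601 for Acadvl with Acads. With mitochondrially encoded genes removed Hsd17b4 was at 0.00066. With the muscle score as a covariate Decr1 was at 0.041 and Hsd17b4 at 0.049. With counts summed with the most similar gene, chosen after seeing the data, Acad10 was at -0.089.

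Leaving out each library in turn gave Cpt1a a range of -0.20 to 0.032, Cpt1b -0.057 to 0.086, Slc25a20 -0.0032 to 0.18, Acadm -0.029 to 0.15, Acad10 -0.038 to 0.10, Acad11 -0.0097 to 0.24 and Hadh -0.11 to 0.033. It gave Eci1 -0.17 to 0.029, Eci2 -0.029 to 0.11, Decr1 -0.10 to 0.071, Acox3 -0.061 to 0.068, Ehhadh -0.16 to 0.27, Hsd17b4 -0.093 to 0.12, Crot -0.11 to 0.019, Scp2 -0.036 to 0.16 and Mlycd -0.11 to 0.11. The median of the 33 ran from -0.03 without cKO replicate 2 to 0.10 without cKO replicate 1. Share differences in percentage points ran from -0.0667 to 0.133 for Cpt1b with Cpt1a, -2.13 to 1.97 for Abcd2 with Abcd3, -0.0393 to 3.77 for Etfa with Etfb, -1.37 to 0.538 for Acad10 with Acad11, -0.487 to 0.909 for Acadl with Acadm and -0.902 to 0.240 for Acadvl with Acads. The whole-table count ran from 8 to 14 genes.

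Acaa1a stayed negative in all 19 settings, from -0.30 to -0.21, with an unadjusted p of 0.00933 to 0.0806 and an adjusted p of 0.5997 or more. All settings draw on the same 8 libraries. Acaa2, Acads, Acadvl, Etfa and Etfb were also negative in all 19. Abcd2, Abcd3, Acadl, Cpt2, Crat, Echs1, Etfdh, Hadha, Hadhb, Pex11a and Slc22a5 were positive in all 19. An unadjusted p under 0.05 was found in 15 settings for Acaa1a, 3 each for Cpt2 and Etfdh, and 1 each for Etfb and Slc22a5. A missing call does not show equal levels: at this depth and with 4 libraries per group, the standard error of a member's log2 fold change was 0.10 to 0.34, with a median of 0.13.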

Other observations

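Across the 33 genes Spearman's rho of the log2 fold change with the length of the coding transcript was 0.39. The same description gave 0.17 over 12876 tested coding genes and 0.24 over the 6070 of them at least as abundant as Cpt1a. Genes share libraries and are not independent replicates, so no test is given. Among the 4 members under 1500 bases (Etfa, Etfb, Eci1 and Eci2) 1 had a positive value and 3 a negative one, against 314 positive and 596 negative among 910 coding genes as abundant. Among the 6 members over 3500 bases (Cpt1a, Crat, Acad10, Hadha, Acox3 and Abcd2) 5 had a positive value and 1 a negative one, against 1712 positive and 960 negative among 2672 coding genes as abundant. The order was not graded: the median was -0.10 under 1500 bases, 0.06 over the 14 members of 1500 to 2500 bases (9 positive), 0.02 over the 9 members of 2500 to 3500 bases (6 positive) and 0.06 over 3500 bases.

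The promoter windows of the members held more G, C and CpG than most: over 28 windows of matched members the median was 61.0% G or C and 17 CpG dinucleotides, against 52.7% and 7 over 32851 windows.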
